A study of Mus musculus with 21 samples.

Results

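The genes described here encode secreted and receptor proteins of the adrenomedullin, vascular endothelial growth factor (VEGF), endothelin and angiopoietin systems, which act on blood vessels and on the cells around them. The listed genes were Adm, Calcrl, Vegfa, Vegfb, Vegfc, Edn1, Ednra, Ednrb, Angpt1 and Angptl4. A member was any gene of this list with a row of the array table annotated to its symbol alone, and the row with the highest mean stood for a gene with several. Of 10 listed genes, 9 had such a row, out of 22180 genes measured in all, and Ednra was not analysed here. Adm was read from row 17481770, Calcrl from 17387385, Vegfa from 17345293, Vegfb from 17362197, Vegfc from 17501160, Edn1 from 17286830, Ednrb from 17309268, Angpt1 from 17316780 and Angptl4 from 17343628.

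The samples were primary osteoblast cultures, the bone-forming cells, grown from calvaria, the skull vault, of C57BL/6J mice aged 7 to 10 days. They were used at passage 2, differentiated from day 3, deprived of serum for 24 h from day 10 and then treated for 4 h in serum-free medium. The treatments were hPTH(1-34), hPTH(1-31), PTH(1-36), bPTH(3-34) and hPTH(7-34), each at 100 nM, a bovine PTH(7-34) amide carrying a D-tryptophan and a tyrosine substitution, written bPTH(7-34), at 1000 nM, and vehicle. These peptides are fragments of parathyroid hormone (PTH), numbered by the residues they keep. hPTH(1-34), hPTH(1-31) and PTH(1-36) keep the amino end of the hormone and are called intact here, while bPTH(3-34), hPTH(7-34) and bPTH(7-34) lack it and are called truncated. Each of the 7 groups had 3 replicates from cells prepared independently for each, so 21 arrays (Affymetrix Mouse Gene 2.0 ST) were measured from 100 ng of total RNA.

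PTH acts on osteoblasts through the receptor Pth1r, which raises cyclic AMP, and the amino end of the hormone is needed for that signal. Bone is built around vessels, and osteoblasts are a known source of VEGF-A, the growth factor that endothelial cells follow. Adrenomedullin is a vasodilator peptide whose receptor is formed by the Calcrl protein with a RAMP partner, endothelin-1 is a vasoconstrictor peptide read by the receptors of Ednra and Ednrb, and angiopoietin-1 activates the endothelial receptor Tek.

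Levels are given as log2 of the deposited array signal, and 1 unit is a doubling. Array medians lay between 3.49 and 3.61, and arrays of 1 group correlated at r of 0.990 to 0.993 over all genes. Arrays carry no read depth, so the number of arrays sets the precision. Differences come from 1 limma model of all 21 arrays, with a standard error (SE), a 95% interval and a p adjusted by Benjamini-Hochberg over all 22180 genes. Calls were made where the adjusted p was under 0.05. All 6 contrasts with vehicle use the same 3 vehicle arrays, so they are not independent of each other.

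The cultures carried osteoblast matrix genes, with vehicle means of 13.2 for Col1a1 and 8.93 for Alpl, while the late marker Bglap averaged 3.73. Macrophage genes were also bright in vehicle, at 12.2 for Lyz2 and 11.3 for Cd68. Of 15 endothelial markers, 7 lay below the median of all values in every group, among them Emcn at 1.95 and Cldn5 at 3.11 in vehicle. Others were above that median in vehicle, among them Erg at 6.23, Tek at 5.38 and Kdr at 4.88. In such bulk RNA, fewer cells of a type and less RNA per cell cannot be told apart.

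Adm was lower and Vegfa was higher with all 3 intact analogs than with vehicle. These were the members called against vehicle with each intact analog, and Vegfc was called as lower with hPTH(1-31) alone. hPTH(1-34) had 2 of 9 members called, against 8.64% of all genes. hPTH(1-31) had 3 of 9 called against 8.70% of all genes, and PTH(1-36) had 2 of 9 against 7.23%. For the mean of the 3 intact analogs minus vehicle, called the pooled contrast here, 3 of 9 members were called against 11.9% of all genes. No member was called with bPTH(3-34), where 0% of all genes were called, with hPTH(7-34), where 0.0721% were, or with bPTH(7-34), where 0% were. At an unadjusted p under 0.05, limma's test passed 2, 2 and 0 members in those contrasts. That threshold is looser than the one for calls, so these counts cannot be read against the shares above.

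**Figure D1:**
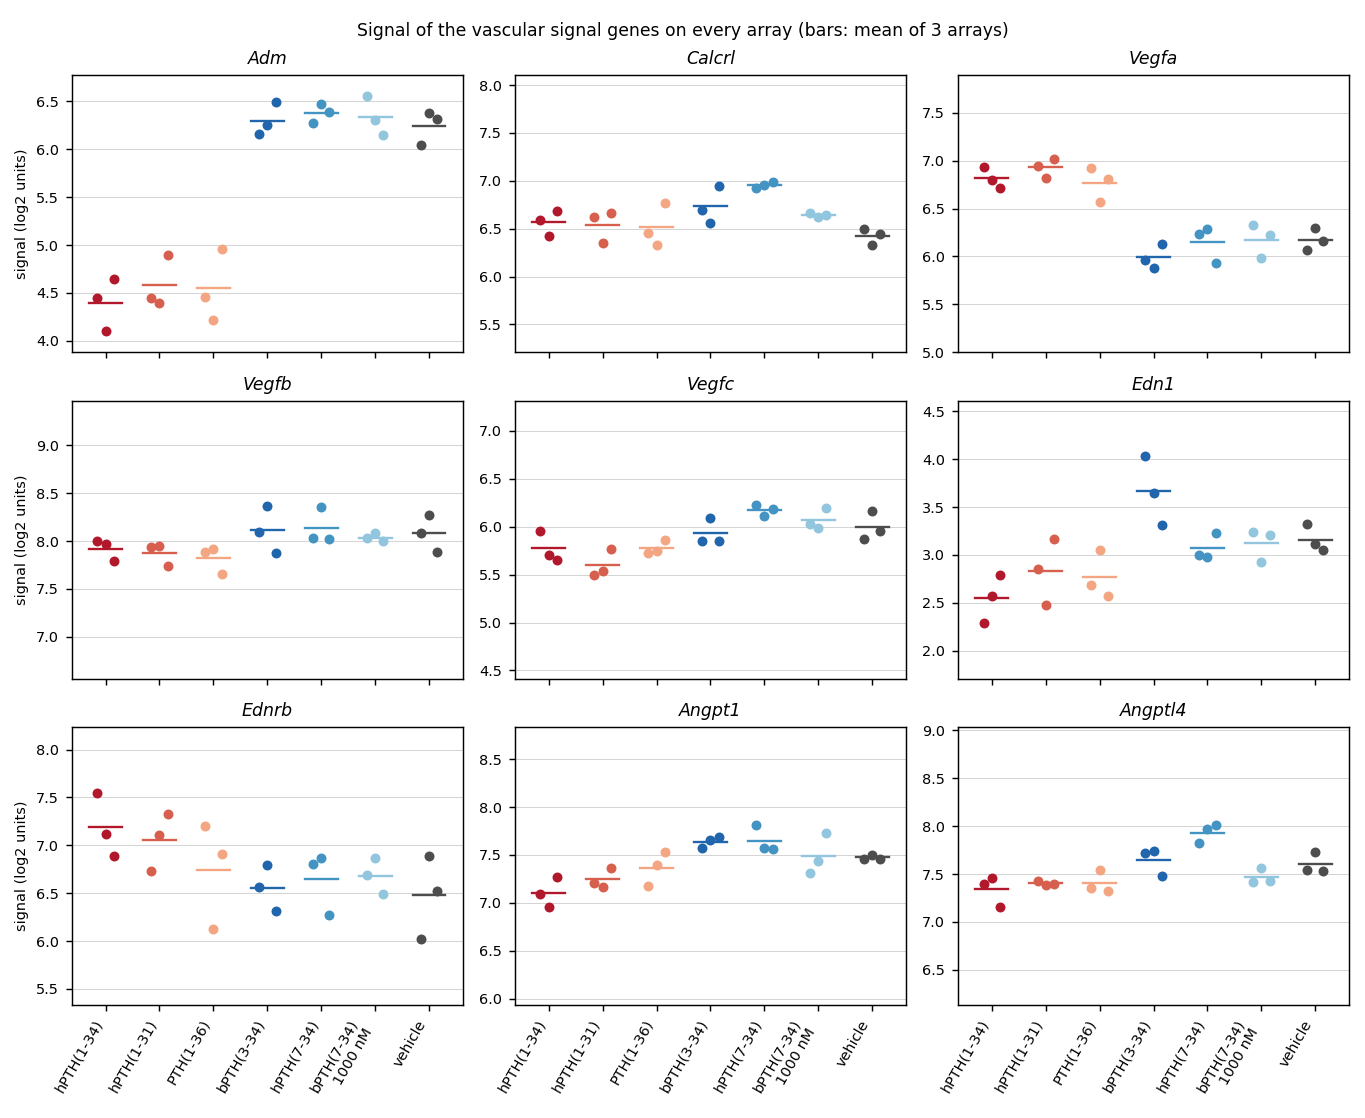
Log2 array signal of the 9 measured members in each of the 21 arrays. Points are arrays, bars are means of the 3 arrays of a group, and every panel spans the same range in log2 units. The 9 arrays with an intact analog lie between 4.10 and 4.96 for Adm, below the vehicle arrays, and between 6.57 and 7.02 for Vegfa, above them.

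Adm encodes adrenomedullin. Its log2 level was 4.45, 4.10 and 4.64 with hPTH(1-34), 4.45, 4.39 and 4.90 with hPTH(1-31), and 4.46, 4.22 and 4.96 with PTH(1-36), against 6.04, 6.38 and 6.32 with vehicle. It was 6.16, 6.25 and 6.49 with bPTH(3-34), 6.27, 6.47 and 6.39 with hPTH(7-34), and 6.56, 6.31 and 6.15 with bPTH(7-34). All 9 arrays with an intact analog lay more than 1 log2 unit below all others, and the arrays of each truncated analog overlapped those of vehicle. The difference from vehicle was -1.85 with hPTH(1-34) (SE 0.19, interval -2.24 to -1.46, limma adjusted p = 1.35e-06), which left 27.7% of the vehicle level. It was -1.67 with hPTH(1-31) (31.5% of vehicle, limma adjusted p = 4.70e-06) and -1.70 with PTH(1-36) (30.8% of vehicle, limma adjusted p = 4.57e-06).

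The group means of Adm ran from 4.40 ± 0.27 with hPTH(1-34) through 4.55 ± 0.38 with PTH(1-36) and 4.58 ± 0.28 with hPTH(1-31), then 6.25 ± 0.18 with vehicle, 6.30 ± 0.17 with bPTH(3-34), 6.34 ± 0.21 with bPTH(7-34) and 6.38 ± 0.10 with hPTH(7-34) (SD, n = 3 each). The only neighbours in this order whose arrays did not overlap were hPTH(1-31) and vehicle. With the truncated analogs the difference from vehicle was 0.05 for bPTH(3-34) (interval -0.34 to 0.44), 0.13 for hPTH(7-34) (interval -0.26 to 0.52) and 0.09 for bPTH(7-34) (interval -0.30 to 0.48). Each of these intervals lies apart from those of the intact analogs.

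The 250 bases before the RefSeq start of Adm are shown because Adm had the largest difference among the members, at chr7:110627407-110627656 on the plus strand (mouse GRCm38.p6). Capitals mark a GC box (GGGCGG, read here on the opposite strand) 42 bases before the start and a TATA core (TATAA, on both strands and overlapping) 28 and 27 bases before it.
Adm: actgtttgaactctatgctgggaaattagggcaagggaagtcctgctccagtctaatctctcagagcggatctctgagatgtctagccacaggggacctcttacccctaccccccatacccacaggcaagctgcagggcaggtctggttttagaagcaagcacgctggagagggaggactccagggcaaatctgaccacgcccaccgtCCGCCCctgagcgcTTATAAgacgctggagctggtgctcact
In the same window of all 32851 RefSeq mouse promoters, 32.7% hold GGGCGG and 22.8% hold TATAA on either strand. The letters TGACG, the core of a cyclic AMP response element (17.8% of all promoters), were not found in the Adm window. Nor was ACGTG, a form of the core of a hypoxia response element (16.6% of all promoters). GCGTG, another form of that core, was not searched, but the window holds it on the opposite strand, as cacgc in the letters shown. A match or its lack describes these letters only.

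Calcrl encodes the receptor that adrenomedullin and CGRP share. Log2 levels of Calcrl were 6.92, 6.96 and 6.99 with hPTH(7-34), 6.70, 6.56 and 6.95 with bPTH(3-34), and 6.66, 6.62 and 6.64 with bPTH(7-34), against 6.50, 6.33 and 6.44 with vehicle. Every array of the truncated analogs lay above all 3 vehicle arrays, but none of the differences passed the test over all genes. Calcrl differed from vehicle by 0.53 with hPTH(7-34) (interval 0.28 to 0.79, limma adjusted p = 0.179), by 0.31 with bPTH(3-34) (adjusted p = 0.751) and by 0.22 with bPTH(7-34) (adjusted p = 0.970). The arrays with intact analogs ran from 6.33 to 6.77, with a median of 6.59, and overlapped those of vehicle in all 3 groups. The hPTH(7-34) difference was called in other settings, at an adjusted p of 0.0373 with the replicate number as a block, 0.0472 with a trended and robust spread and 0.0115 with p adjusted over all contrasts together. It was not called in the remaining settings or in any of the 21 fits without 1 array.

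The summed linear signal of the 14 measured macrophage and osteoclast markers was 15310 to 17411 with hPTH(7-34), where Calcrl was highest, against 14330 to 15963 with vehicle. The ranges overlapped, 12 of the 14 markers had a mean above vehicle with hPTH(7-34), and 0 of 14 were called (2 at an unadjusted p under 0.05 by limma). The part of these cells in the Calcrl values was not tested.

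Of the RAMP partners of Calcrl, Ramp3 alone was called. In the adrenomedullin and CGRP list, 2 of 10 measured genes rose in the pooled contrast and 0 fell, where 5.45% of all genes rose and 6.49% fell. The list median was -0.08, against -0.02 over all genes. The same 2 were called with each intact analog. Ramp3, a partner that turns the Calcrl protein into an adrenomedullin receptor, was 6.26, 6.01 and 6.33 with hPTH(1-34), against 4.44, 4.42 and 4.16 with vehicle. Its 3 hPTH(1-34) arrays lay above all vehicle arrays, as did those of the other intact analogs, and the pooled difference was 1.82 (SE 0.12, 3.54-fold, limma adjusted p = 4.11e-09). Ackr3, a scavenging receptor that also binds adrenomedullin, was 1.20 above vehicle (2.29-fold, limma adjusted p = 6.97e-08). Ramp1, which makes the CGRP receptor, and Ramp2, the other adrenomedullin partner, are added here for that role, outside the naming rule. Ramp1 differed by -0.19 (adjusted p = 0.500) and Ramp2 by -0.26 (adjusted p = 0.215), with arrays that overlapped vehicle. In the same cultures the ligand gene Adm was lower and the co-receptor gene Ramp3 was higher.

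Vegfa encodes VEGF-A. Its log2 level was 6.93, 6.80 and 6.72 with hPTH(1-34), 6.95, 6.82 and 7.02 with hPTH(1-31), and 6.92, 6.57 and 6.81 with PTH(1-36), against 6.07, 6.30 and 6.16 with vehicle. It was 5.96, 5.88 and 6.13 with bPTH(3-34), 6.23, 6.29 and 5.93 with hPTH(7-34), and 6.33, 5.98 and 6.22 with bPTH(7-34). All 9 arrays with an intact analog were above all others, and the truncated analogs overlapped vehicle. Vegfa rose by 0.64 with hPTH(1-34) (interval 0.38 to 0.90, 1.56-fold, limma adjusted p = 0.00175). It rose by 0.75 with hPTH(1-31) (1.69-fold, adjusted p = 0.000354) and by 0.59 with PTH(1-36) (1.51-fold, adjusted p = 0.00413). The PTH(1-36) call was lost with only the arrays of the groups compared in the fit (adjusted p = 0.0604).

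Ordered by mean, Vegfa was 6.93 ± 0.10 with hPTH(1-31), 6.82 ± 0.11 with hPTH(1-34), 6.77 ± 0.18 with PTH(1-36), 6.18 ± 0.18 with bPTH(7-34), 6.18 ± 0.12 with vehicle, 6.15 ± 0.19 with hPTH(7-34) and 5.99 ± 0.13 with bPTH(3-34) (SD, n = 3 each). Neighbours overlapped at every step except between PTH(1-36) and bPTH(7-34), which were used at different doses. Against vehicle the truncated analogs differed by -0.19 for bPTH(3-34) (interval -0.44 to 0.07), by -0.03 for hPTH(7-34) (interval -0.28 to 0.23) and by 0.00 for bPTH(7-34) (interval -0.26 to 0.26).

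The 250 bases before the first of the RefSeq starts of Vegfa are shown as the counterpart of the Adm window, since these members moved in opposite directions, at chr17:46032378-46032627 on the minus strand (GRCm38.p6). Capitals mark GC boxes (GGGCGG) 72 and 62 bases before the start.
Vegfa: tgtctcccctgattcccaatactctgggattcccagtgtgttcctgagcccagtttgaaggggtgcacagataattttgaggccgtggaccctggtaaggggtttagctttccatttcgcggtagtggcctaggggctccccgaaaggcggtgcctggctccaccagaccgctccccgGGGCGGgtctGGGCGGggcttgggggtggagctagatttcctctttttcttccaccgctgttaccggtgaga
Neither TGACG nor ACGTG was found in this window on either strand, and TATAA was not found there. A second annotated start of Vegfa has TGACG and ACGTG, both on the opposite strand and overlapping by shared letters, 209 and 211 bases before it. The first excerpt below, at chr17:46025357-46025383 on the minus strand, has the TGACG match in capitals, and the second, at chr17:46025359-46025385 on the minus strand, has the ACGTG match.
Vegfa second start, TGACG match: gtgcgtgcccaCGTCAgagagcaacat
Vegfa second start, ACGTG match: gagtgcgtgccCACGTcagagagcaac
Of the 10 listed genes, 8 had a promoter in the RefSeq table. Among the other measured members with one, the TGACG core was found before Ednrb only, 203 bases before its start at chr14:103843889-103843915 on the minus strand.
Ednrb: gctgagtgcatTGACGtatgcccttgg

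Vegfb, whose product binds the receptor encoded by Flt1, did not pass the test in any contrast with vehicle. Its log2 level was 7.66 to 8.00 over the 9 arrays with an intact analog, with a median of 7.92, against 7.89 to 8.27 with vehicle. Within each of the 7 groups, replicate 3 was the lowest of the 3 Vegfb arrays. The replicate number was not in the main model, and calls with it as a block are given below. The groups overlapped, and the pooled difference was -0.21 (interval -0.43 to 0.02, limma adjusted p = 0.273). The pooled difference of Vegfa was 0.66 (interval 0.45 to 0.87, limma adjusted p = 0.000121), and the difference between the 2 genes was not tested.

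Vegfc encodes the ligand best known for lymphatic vessel growth. Log2 levels of Vegfc were 5.50, 5.54 and 5.77 with hPTH(1-31), against 5.87, 6.16 and 5.96 with vehicle. All 3 hPTH(1-31) arrays were below vehicle, and the difference was -0.39 (interval -0.62 to -0.17, limma adjusted p = 0.0280). With hPTH(1-34) the values were 5.96, 5.71 and 5.65, which overlapped vehicle (difference -0.22, adjusted p = 0.264). With PTH(1-36) they were 5.73, 5.75 and 5.86, just under the lowest vehicle array (difference -0.22, adjusted p = 0.295). Fits without replicate 2 or 3 of vehicle, or replicate 1 or 2 of hPTH(1-31), did not call it (highest adjusted p = 0.142). The pooled difference of -0.28 (limma adjusted p = 0.0485) sat at the threshold and was lost in 15 of 21 fits that left out 1 array (adjusted p up to 0.299).

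The receptors and co-receptors of VEGF split by gene. In the VEGF list, 2 of 12 measured genes rose and 2 fell in the pooled contrast, where 5.45% of all genes rose and 6.49% fell. The list median was -0.02, equal to that of all genes. Nrp1, a co-receptor for VEGF-A, was higher by 0.50 (1.41-fold, limma adjusted p = 8.90e-06), while Nrp2, the co-receptor more tied to VEGF-C, was lower by 0.43 on the log2 scale (0.743-fold, adjusted p = 0.000532). Kdr, the main signalling receptor for VEGF-A, was higher by 0.55 (adjusted p = 0.00574), at 5.70, 5.53 and 5.30 with hPTH(1-31), against 4.80, 4.92 and 4.93 with vehicle. Plxnd1, a plexin that reads semaphorins with neuropilins, differed by -0.31 (adjusted p = 0.0338). The Plxnd1 difference was not called in 6 of 21 fits without 1 array, namely replicate 2 or 3 of vehicle or of hPTH(1-34) and replicate 1 or 2 of hPTH(1-31) (adjusted p up to 0.182). No gene of this list was called with a truncated analog. The summed signal of the 15 endothelial markers, which include Kdr, was 285 to 303 with hPTH(1-34), 276 to 303 with hPTH(1-31) and 285 to 298 with PTH(1-36), against 275 to 308 with vehicle.

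**Figure D2:**
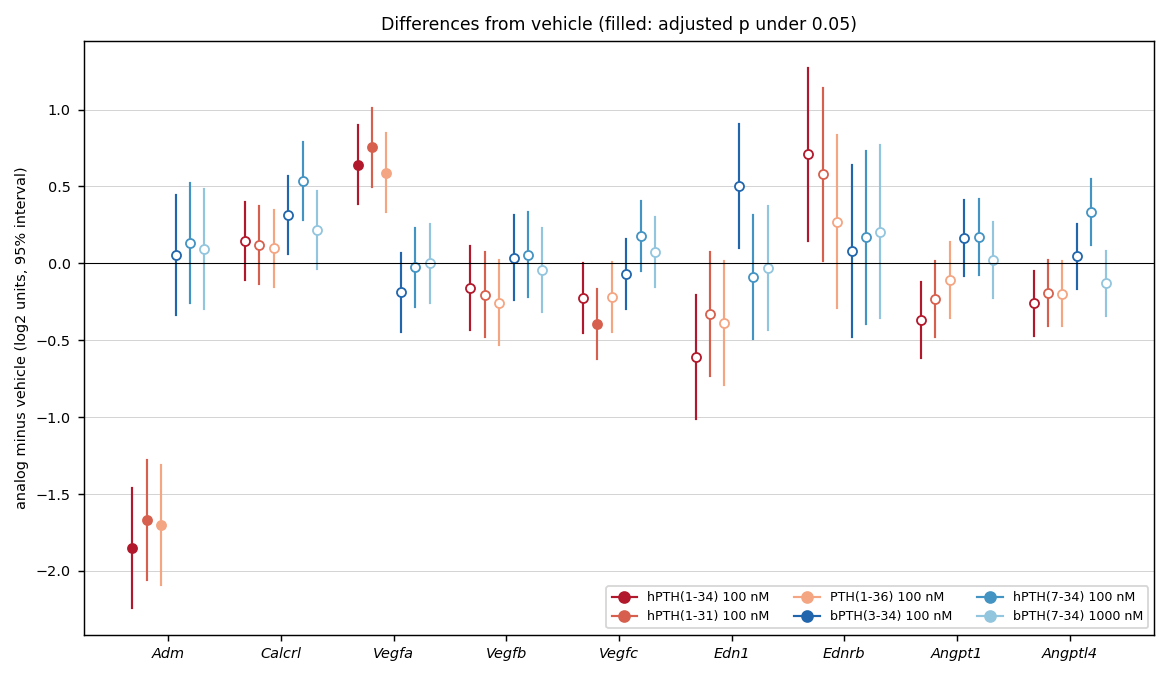
Difference of each measured member from vehicle for the 6 analogs, in log2 units, with the 95% interval of the limma model. Filled points were called at an adjusted p under 0.05 over all genes. Adm lies near -1.8 and Vegfa near 0.7 with the 3 intact analogs, while with the truncated analogs no point is filled.

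Edn1 encodes endothelin-1 and had low signal, below the median of all values in every group mean except that of bPTH(3-34). Its log2 level was 2.29, 2.57 and 2.79 with hPTH(1-34), 2.85, 2.48 and 3.17 with hPTH(1-31), and 2.69, 3.05 and 2.57 with PTH(1-36), against 3.32, 3.11 and 3.05 with vehicle. With the truncated analogs it was 4.03, 3.65 and 3.31 for bPTH(3-34), 3.00, 2.98 and 3.23 for hPTH(7-34) and 3.24, 2.93 and 3.21 for bPTH(7-34). The hPTH(1-34) arrays were the lowest group and lay below vehicle, and the bPTH(3-34) arrays were the highest group, 1 of them just under the highest vehicle array. Neither passed the test against vehicle. The hPTH(1-34) difference was -0.61 (interval -1.01 to -0.21, limma adjusted p = 0.0577) and the bPTH(3-34) difference was 0.50 (interval 0.10 to 0.91, limma adjusted p = 0.750). The hPTH(1-34) difference was called with quantile normalization (-0.62, adjusted p = 0.0459), with array medians set equal (-0.63, adjusted p = 0.0396) and with dim genes left out (adjusted p = 0.0322), a filter that Edn1 passed through the bPTH(3-34) mean alone. It was also called in 5 of 21 fits without 1 array, where the adjusted p ran from 0.0403 to 0.228.

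Ednrb encodes the endothelin receptor that binds all endothelins alike. Log2 levels of Ednrb were 7.55, 7.12 and 6.89 with hPTH(1-34), 6.73, 7.11 and 7.33 with hPTH(1-31), and 7.20, 6.13 and 6.91 with PTH(1-36), against 6.02, 6.89 and 6.52 with vehicle. Its standard error was the largest of the members, and the arrays of all 3 groups overlapped vehicle. The differences were 0.71 for hPTH(1-34) (interval 0.15 to 1.27, limma adjusted p = 0.126), 0.58 for hPTH(1-31) (adjusted p = 0.237) and 0.27 for PTH(1-36) (adjusted p = 0.666). Of 6 further genes of endothelin production and breakdown, 1 rose and 0 fell in the pooled contrast, where 5.45% of all genes rose and 6.49% fell, and the list median was 0.09. Without vehicle replicate 1, 2 of these genes were called. That gene was Ece1, the enzyme that cuts endothelin from its precursor, at 9.99, 10.08 and 9.96 with hPTH(1-34), against 9.14, 9.18 and 9.05 with vehicle. Its arrays did not overlap those of vehicle with any intact analog, and the pooled difference was 0.88 (1.84-fold, limma adjusted p = 7.33e-08).

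Angpt1 encodes angiopoietin-1. Its log2 level was 7.09, 6.96 and 7.27 with hPTH(1-34), 7.21, 7.16 and 7.36 with hPTH(1-31), and 7.18, 7.39 and 7.53 with PTH(1-36), against 7.46, 7.50 and 7.46 with vehicle. The hPTH(1-34) and hPTH(1-31) arrays lay below vehicle and those of PTH(1-36) did not all do so. None was called, with differences of -0.37 for hPTH(1-34) (limma adjusted p = 0.0621), -0.23 for hPTH(1-31) (adjusted p = 0.302) and -0.11 for PTH(1-36) (adjusted p = 0.705). The hPTH(1-34) difference was called with a trended and robust spread (adjusted p = 0.0214), with dim genes left out (adjusted p = 0.0320), and without hPTH(1-34) replicate 3 or bPTH(7-34) replicate 3 (adjusted p = 0.0409 and 0.0394). With bPTH(3-34) the levels were 7.57, 7.66 and 7.69 and with hPTH(7-34) 7.81, 7.57 and 7.56, all above vehicle, with differences of 0.17 for each and no call. A second, dimmer row of Angpt1 was not used.

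Tek, the receptor of angiopoietin-1, was lower with the intact analogs. It was 4.28, 4.64 and 4.15 with hPTH(1-31), against 5.31, 5.72 and 5.11 with vehicle, and its pooled difference was -0.83 (0.562-fold, limma adjusted p = 0.000749). All 9 arrays with an intact analog lay below vehicle. Ptprb, a phosphatase that restrains Tek signalling, was higher by 1.32 (2.49-fold, adjusted p = 2.57e-05), and Angpt2, a second Tek ligand, differed by -0.46 (adjusted p = 0.0394), a call lost in 8 of 21 fits without 1 array (adjusted p up to 0.316, among them those without vehicle replicate 1 or 2). In the angiopoietin list, 1 of 9 measured genes rose and 2 fell, where 5.45% of all genes rose and 6.49% fell. The list median was -0.08.

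Angptl4 encodes a secreted inhibitor of lipoprotein lipase that is also tied to vessel permeability. Log2 levels of Angptl4 were 7.82, 7.97 and 8.01 with hPTH(7-34), against 7.54, 7.73 and 7.53 with vehicle. Every hPTH(7-34) array was above every vehicle array and above the arrays of all other groups. The difference was 0.33 (interval 0.12 to 0.55), with an unadjusted p of 0.00398 and a limma adjusted p of 0.384, so it was not called. The macrophage marker sums given beside Calcrl apply to the same arrays, and their part in Angptl4 was not tested. With hPTH(1-34) the levels were 7.40, 7.46 and 7.16 and with hPTH(1-31) 7.43, 7.39 and 7.40, all below vehicle. With PTH(1-36) they were 7.35, 7.54 and 7.32, which overlapped vehicle. The pooled difference of -0.22 (interval -0.39 to -0.04) had a limma adjusted p of 0.107.

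Comparisons between peptides at the same dose covered 10 pairs of the 5 analogs used at 100 nM. The intact analogs differ at the carboxyl end. No member was called in any of the 3 pairs between them, where 0%, 0.00451% and 0.00451% of all genes were called. At an unadjusted p under 0.05, a looser threshold than the one behind these shares, 0 members passed in 2 of these pairs and 1 in the other. Adm differed by 0.18 between hPTH(1-31) and hPTH(1-34) (interval -0.21 to 0.57), by 0.15 between PTH(1-36) and hPTH(1-34) (interval -0.24 to 0.54) and by -0.03 between PTH(1-36) and hPTH(1-31) (interval -0.42 to 0.36). Vegfa differed by 0.11 (interval -0.14 to 0.37), -0.05 (interval -0.31 to 0.21) and -0.16 (interval -0.42 to 0.09) in the same pairs. The intervals leave room for differences smaller than the changes against vehicle.

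hPTH(7-34) and hPTH(1-34) are human fragments that differ by the loss of the amino end. Of 9 members, 6 were called between them, against 10.9% of all genes. Adm was higher with hPTH(7-34) by 1.98 (3.94-fold, limma adjusted p = 5.95e-07) and Vegfa was lower by 0.67 on the log2 scale (0.630-fold, adjusted p = 0.00114). Angptl4 was higher by 0.59 (1.51-fold, adjusted p = 0.000571), Angpt1 by 0.54 (1.45-fold, adjusted p = 0.00479), Vegfc by 0.40 (1.32-fold, adjusted p = 0.0205) and Calcrl by 0.39 (1.31-fold, adjusted p = 0.0440). The Calcrl call was lost in 13 of 21 fits without 1 array (adjusted p up to 0.178), and the Vegfc call was lost without hPTH(1-34) replicate 2 or 3 or hPTH(7-34) replicate 1 or 3 (adjusted p up to 0.0963). The Angpt1 call was lost when its rows were averaged (adjusted p = 0.0623). Vegfb, Edn1 and Ednrb were not called, though Edn1 was with array medians set equal (0.60, adjusted p = 0.0352).

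hPTH(7-34) minus hPTH(1-31) also gave 6 called members, against 10.4% of all genes, and hPTH(7-34) minus PTH(1-36) gave 5, against 8.49%. Angptl4 was higher with hPTH(7-34) by 0.53 in each of these (limma adjusted p = 0.00166 and 0.00195). Vegfc was higher by 0.57 than with hPTH(1-31) (adjusted p = 0.00149) and by 0.40 than with PTH(1-36) (adjusted p = 0.0282). Calcrl was higher by 0.41 and 0.44 (adjusted p = 0.0331 and 0.0294), and each call was lost in 5 fits without 1 array, those of hPTH(7-34) among them (adjusted p up to 0.166 and 0.141). The Vegfc call against PTH(1-36) was lost in 5 such fits (adjusted p up to 0.100), and that of Angpt1 against hPTH(1-31), at 0.40 (adjusted p = 0.0329), in 4 (adjusted p up to 0.160).

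bPTH(3-34) differs from hPTH(1-34) and hPTH(1-31) by its missing first residues and by its bovine in place of human sequence. It lacks the same residues beside PTH(1-36), whose label names no species. bPTH(3-34) minus hPTH(1-34) gave 4 called members against 9.32% of all genes, bPTH(3-34) minus hPTH(1-31) gave 4 against 9.14%, and bPTH(3-34) minus PTH(1-36) gave 3 against 7.21%. Adm was higher with bPTH(3-34) by 1.90, 1.72 and 1.75 in these contrasts, and Vegfa was lower by 0.83, 0.94 and 0.78 on the log2 scale. Edn1 was called in all 3, higher with bPTH(3-34) by 1.11 than with hPTH(1-34) (limma adjusted p = 0.000650), by 0.83 than with hPTH(1-31) (adjusted p = 0.00831) and by 0.89 than with PTH(1-36) (adjusted p = 0.00569). The Edn1 call against hPTH(1-31) was lost without hPTH(1-31) replicate 2 or bPTH(3-34) replicate 1 (adjusted p up to 0.0582). With only the groups compared in the fit, the Edn1 calls against hPTH(1-31) and PTH(1-36) were lost (adjusted p = 0.0935 and 0.0697). No fold is given for Edn1, since its means with the intact analogs lay below the median of all values. Angpt1 was higher by 0.53 than with hPTH(1-34) (adjusted p = 0.00553) and by 0.40 than with hPTH(1-31) (adjusted p = 0.0399), the second call being lost in 6 of 21 fits without 1 array (adjusted p up to 0.141). Each of these Angpt1 calls was lost when the rows of Angpt1 were averaged, the first at a difference of 0.27 (adjusted p = 0.204).

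Between the truncated analogs at 100 nM, hPTH(7-34) minus bPTH(3-34), no member was called, where 0.0496% of all genes were. Edn1 differed by -0.59 (SE 0.19, limma adjusted p = 0.731), Angptl4 by 0.29 (interval 0.07 to 0.50, adjusted p = 0.859) and Vegfc by 0.25 (interval 0.02 to 0.47, adjusted p = 0.936). At an unadjusted p under 0.05, a looser threshold than the one behind that share, 3 members passed. bPTH(7-34) was used at 1000 nM and was compared with vehicle only.

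**Figure D3:**
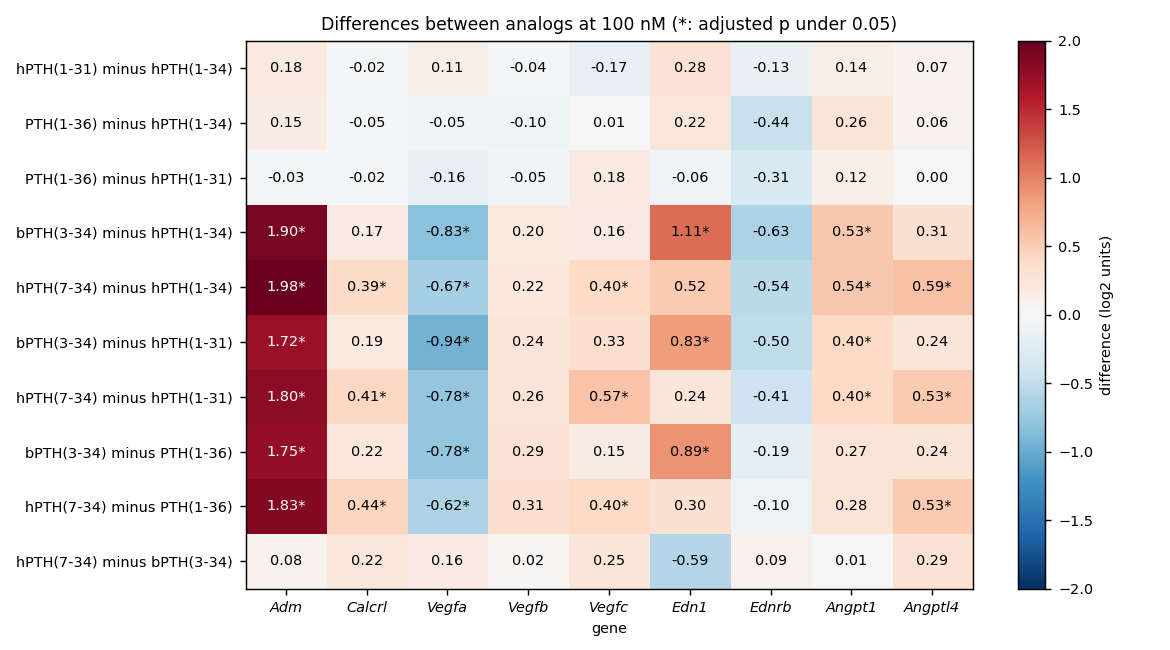
Differences of the 9 measured members in the 10 pairs of analogs used at 100 nM, in log2 units, first named minus second named. Colour gives the size and direction, the number is the difference, and a star marks an adjusted p under 0.05. The rows between intact analogs hold no star, and the rows that set a truncated against an intact analog hold 3 to 6.

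Over all 6 contrasts with vehicle together, limma's F test called 6 of 9 members, against 12.2% of all genes. Adm (adjusted p = 2.30e-08) and Vegfa (adjusted p = 1.90e-05) came first, followed by Angptl4 (adjusted p = 0.00382), Edn1 (adjusted p = 0.00870), Vegfc (adjusted p = 0.0104) and Angpt1 (adjusted p = 0.0185). Calcrl (adjusted p = 0.0597), Ednrb (adjusted p = 0.378) and Vegfb (adjusted p = 0.409) were not called. The group means spanned 1.98 log2 units for Adm, 1.11 for Edn1, 0.94 for Vegfa and 0.31 for Vegfb.

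Further lists were read in the same pooled contrast, where 5.45% of all genes rose and 6.49% fell. Of 31 measured genes of the hypoxia response, through which Vegfa and Adm are best known to be induced, 7 rose and 2 fell, with a list median of 0.04. Ddit4, a stress-induced brake on mTOR signalling, was higher by 0.86 (1.81-fold, limma adjusted p = 2.50e-07), Car12, a carbonic anhydrase, by 0.90 (1.86-fold, adjusted p = 8.62e-06), Ndrg1 by 0.59 (adjusted p = 0.000104) and Epas1, which encodes HIF-2 alpha, by 0.43 (adjusted p = 0.000866). Arnt2, a dimer partner of HIF proteins, was lower by 0.85 on the log2 scale (0.554-fold, adjusted p = 2.11e-05). Hif1a, added for its role and outside the naming rule, differed by 0.21 (adjusted p = 0.102). Adm, itself a hypoxia-inducible gene, fell, as did 2 genes of this list, while 7 rose and the others were not called. The part of hypoxia signalling in these changes was not tested.

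Angptl4 is a known target of PPAR nuclear receptors. Of 22 measured PPAR-responsive lipid genes, 2 rose and 7 fell in the pooled contrast, with a list median of -0.15. The 9 called genes became 5 without vehicle replicate 1 and 5 without vehicle replicate 2, and the range over all fits without 1 array was 5 to 10. Ppard, the gene of PPAR delta, was 8.18, 8.10 and 8.06 with hPTH(1-34), against 7.18, 7.20 and 7.16 with vehicle, and was higher in the pooled contrast by 0.95 (1.93-fold, limma adjusted p = 1.73e-08). Pparg, the gene of PPAR gamma, was lower by 0.72 on the log2 scale (0.608-fold, adjusted p = 3.56e-05). The fatty acid oxidation genes Acadm (-0.47, adjusted p = 3.36e-05), Cpt1a (-0.35, adjusted p = 0.00177) and Acadl (-0.31, adjusted p = 0.0111) were lower, and the Acadl call was lost without vehicle replicate 2 (adjusted p = 0.137).

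Of 30 other measured factors of vessel growth and tone, 3 rose and 6 fell in the pooled contrast, with a list median of 0.00. Jag1, a Notch ligand, was lower by 1.13 on the log2 scale (0.458-fold, limma adjusted p = 1.31e-09), Thbs1, which encodes the vessel growth inhibitor thrombospondin-1, by 0.72 (adjusted p = 7.33e-08) and Npr3, the natriuretic peptide clearance receptor, by 0.48 (adjusted p = 2.52e-05). Fgf2, a growth factor for endothelial cells, was higher by 0.60 (adjusted p = 0.000208) and Ptgs2, the inducible cyclooxygenase, by 1.00 (2.00-fold, adjusted p = 0.00154). No gene of these 3 lists was called with bPTH(3-34), hPTH(7-34) or bPTH(7-34).

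**Figure D4:**
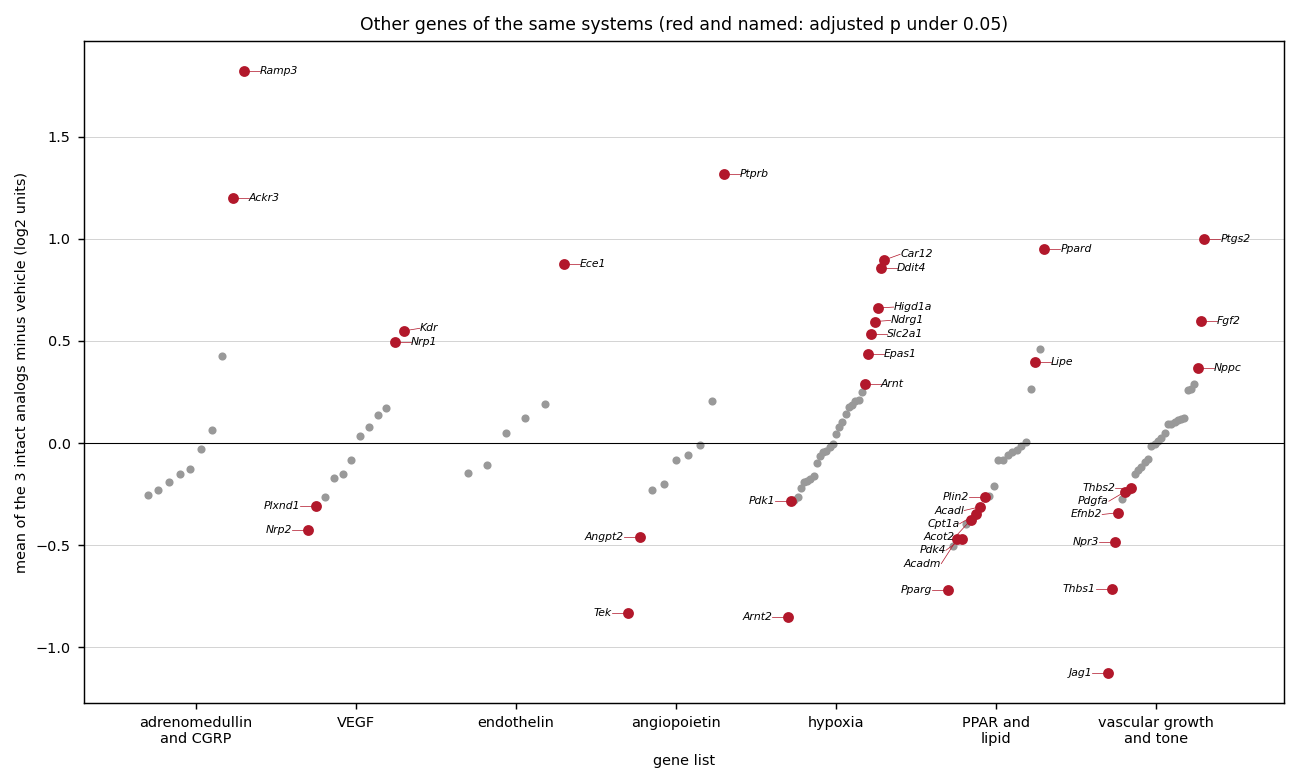
Pooled difference of the 3 intact analogs minus vehicle, in log2 units, for every measured gene of 7 lists around the members. Each point is a gene, and every called gene is red and named. Ramp3 lies at 1.82 and Jag1 at -1.13, and the other genes of each list spread around 0.

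Markers of other cell types gave the following in the pooled contrast, where 5.45% of all genes rose and 6.49% fell. Of 15 endothelial markers, 1 rose (Kdr) and 1 fell (Tek). Of 12 pericyte and smooth muscle markers, 3 rose and 4 fell, with Cnn1 higher by 2.02, Mcam by 0.48 (a call lost without vehicle replicate 2, adjusted p = 0.0912), Pdgfrb lower by 0.84, Notch3 by 0.55 and Cspg4 by 0.44 on the log2 scale. Their summed linear signal was 7280 to 7383 with hPTH(1-34), 6774 to 7943 with hPTH(1-31) and 6906 to 7483 with PTH(1-36), against 6767 to 7815 with vehicle, and the ranges overlapped. Of 14 macrophage markers, 1 rose, Fcgr1 by 0.44, a call lost without vehicle replicate 3 (limma adjusted p = 0.130). Of 9 osteoblast markers, 1 rose (Alpl, by 0.47) and 2 fell (Pth1r, by 1.07, and Sp7, by 0.64). Of 7 chondrocyte markers, 1 rose (Acan, by 0.39) and 1 fell (Sox9, by 0.38). The Sox9 call was lost without vehicle replicate 1 or 2 (adjusted p up to 0.199), and the Acan call in 16 of 21 fits without 1 array (adjusted p up to 0.242). Of 5 adipocyte markers, 0 were called in the pooled contrast (0 at an unadjusted p under 0.05 by limma). The part of these cells in the members' values was not tested.

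For each member called by the F test, the genes with the most similar pattern were taken by Pearson r over the 7 group means, among 1784 genes called by the same test whose means spanned at least 0.5 log2 units. These r describe 7 points that fall mainly into an intact and an other set, so high values are common. For Adm they were Sipa1l3 (r = 0.999), Ror2 (r = 0.998) and Plekhg2 (r = 0.998). For Vegfa they were Bhlhe40 (r = 0.997), Nop2 (r = 0.995) and Ppard (r = 0.995). For Vegfc they were Klf12 (r = 0.992), Kiz (r = 0.989) and Fmn1 (r = 0.985), and for Angpt1 Nit1 (r = 0.989), Nudt7 (r = 0.986) and Slc1a5 (r = 0.984). For Edn1 they were Ccdc15 (r = 0.976), Fut10 (r = 0.969) and Fam107b (r = 0.965), and for Angptl4 Serpinb8 (r = 0.962), Cyp39a1 (r = 0.959) and Cep290 (r = 0.957).

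**Figure D5:**
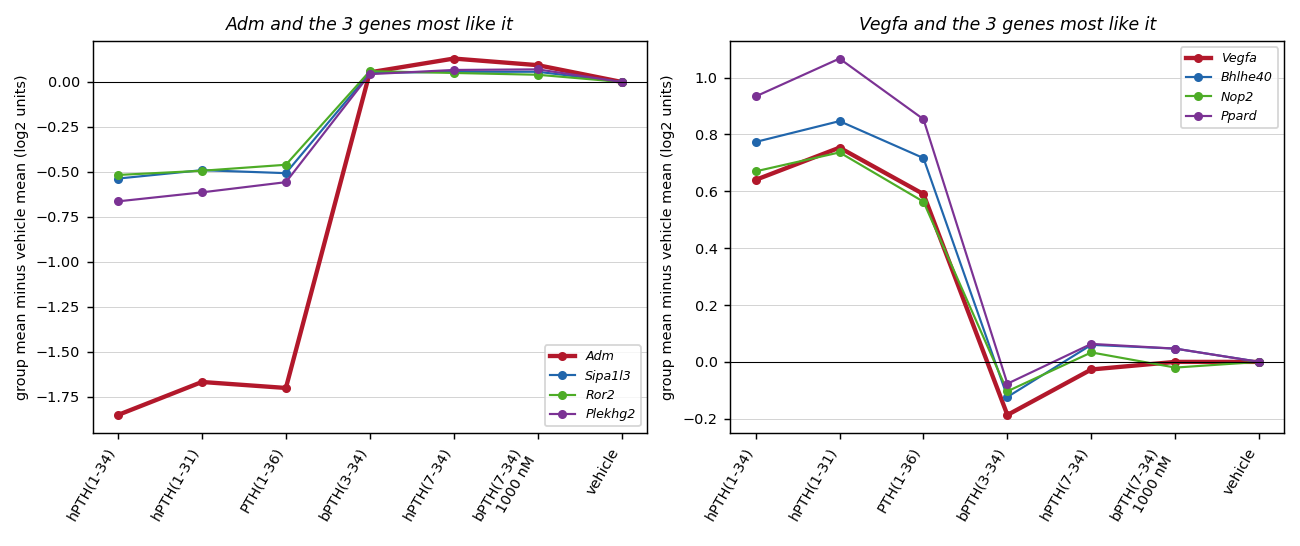
Group mean minus vehicle mean, in log2 units, for Adm with Sipa1l3, Ror2 and Plekhg2, and for Vegfa with Bhlhe40, Nop2 and Ppard, over the 7 groups. Points are means of 3 arrays less the vehicle mean, and no spread is drawn. Genes shown with Adm are lower and genes shown with Vegfa are higher with the intact analogs than with vehicle. That direction was set by choosing them for their r, which does not reflect size. Group means spanned 0.58 to 0.73 log2 units for the genes shown with Adm, against 1.98 for Adm.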

How the data were processed

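The authors deposited 1 table of log2 values for 21 Affymetrix Mouse Gene 2.0 ST arrays, made by RMA in Affymetrix Expression Console per the submitters' processing notes, with versions, settings and the base of the logarithm not given in the sources used here. The base was read from the method and the range (0.25 to 13.6), so every fold rests on that reading. Of 41345 rows, 23521 carried 1 gene symbol in the platform annotation, 1814 several and 16010 none. Rows with 1 symbol were used, the row with the highest mean standing for a gene (1082 genes had several), which gave 22180 genes.

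All arrays entered 1 limma 3.58.1 model of 7 group means in R 4.3.3 (lmFit, contrasts.fit, eBayes), with 17 contrasts and an F test over the 6 with vehicle. Tests were two-sided, p-values were adjusted by Benjamini-Hochberg within each contrast, and a call was an adjusted p under 0.05. The script was tested on simulated data. Motifs were searched on both strands of RefSeq promoters (GRCm38.p6).

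Members, lists (adrenomedullin and CGRP, VEGF, endothelin, angiopoietin, hypoxia, PPAR, other vascular factors, and markers of 6 cell types) and contrasts were chosen with earlier results of these data known. Text names all members, up to 5 called genes of each list by smallest adjusted p in the pooled contrast, and the 3 most alike genes of each member called by the F test. Arrays were not paired by replicate number, for which no batch is stated. Of 63 same-numbered pairs, deviations from group means correlated at r of -0.08 to 0.16, 1 of them over 0.1. Yet 15 of 21 arrays correlated best with an array of another group that had their own number. Whether preparations were shared was not tested, and calls with the number as a block are given below. Alternatives changed the fit, normalization, filter, rows, adjustment and arrays included. No array was left out of the main result, and rows without a single symbol were left out because they name no gene.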

Additional observations from a re-analysis of the deposited data

How the results depend on the processing

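The numbers of members called under the alternatives were read against those in the report, and no difference that was called in one setting was called with the opposite sign in another. Of 1377 differences recomputed under settings other than leaving out an array, 1310 kept their direction and their side of the threshold, 37 lost a call, 19 gained one, and 11 changed sign without a call. The calls of Adm held in every setting, and those of Vegfa in every setting except 1. That setting kept only the groups compared in the fit, where Vegfa was not called in PTH(1-36) minus vehicle or in hPTH(7-34) minus PTH(1-36) (adjusted p = 0.0627). There PTH(1-36) minus vehicle had 1 member called in place of 2, bPTH(3-34) minus hPTH(1-31) 2 in place of 4, and hPTH(7-34) minus PTH(1-36) 2 in place of 5. That last count was 3 with all rows in the fit. hPTH(7-34) minus vehicle gave 1 called member, Calcrl, in place of 0, with the replicate block, with a trended and robust spread, and with p adjusted over all contrasts together. hPTH(1-34) minus vehicle gave 4 in place of 2 with dim genes left out (14504 genes kept), by adding Edn1 and Angpt1 (adjusted p = 0.0320). Edn1 passed this filter only through its bPTH(3-34) mean of 3.66, with means of 2.55 for hPTH(1-34) and 3.16 for vehicle. Those 2 means lie under the median of all values, 3.55, so the Edn1 calls under this filter are no added support. Leaving out 1 array gave 2 to 4 called members with hPTH(1-34), 2 to 3 with hPTH(1-31), 2 with PTH(1-36), 2 to 4 in the pooled contrast and 5 to 7 by the F test. Against hPTH(1-34) it gave 4 to 5 for bPTH(3-34) and 4 to 6 for hPTH(7-34), against hPTH(1-31) 2 to 5 and 4 to 6, and against PTH(1-36) 3 and 3 to 5. It gave 0 throughout for each truncated analog minus vehicle, for pairs of intact analogs and for hPTH(7-34) minus bPTH(3-34). Replicate numbers share no stated batch. With them as a block, Vegfc lost its call in the pooled contrast, Angptl4 gained one there (adjusted p = 0.0499), Angpt1 gained one in hPTH(1-34) minus vehicle (adjusted p = 0.0384), and Vegfb gained one in bPTH(3-34) minus PTH(1-36) and in hPTH(7-34) minus PTH(1-36) (adjusted p = 0.0419 and 0.0271). The block also gave Angptl4 a call in bPTH(3-34) minus hPTH(1-34) (0.31, adjusted p = 0.0282), as did a trended and robust spread, equal array medians, the filter on dim genes and a fit without bPTH(3-34) replicate 3. The filter on dim genes added calls for Edn1 in the pooled contrast (adjusted p = 0.0470) and for Vegfc in bPTH(3-34) minus hPTH(1-31) (adjusted p = 0.0373). Without PTH(1-36) replicate 2, Edn1 and Ednrb were called in the pooled contrast (adjusted p = 0.0497 and 0.0438), and without hPTH(1-31) replicate 3, Edn1 there (adjusted p = 0.0389) and Vegfc in bPTH(3-34) minus hPTH(1-31) (adjusted p = 0.0382). Of the arrays, 15 of 21 correlated best with an array of their own number, a hint from the data only. With 3 arrays a group, the standard error of a contrast with vehicle ran from 0.10 for Angptl4 to 0.27 for Ednrb, and the cause of calls that changed was not tested.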
